A study of Mus musculus with 38 samples.

Results

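The upper-layer excitatory neurons described here were 685 nuclei of mouse cortex that carried transcripts of Otof and Ccbe1, out of 14296 nuclei from 4 animals. They were chosen by measured unique molecular identifiers (UMIs, each standing for 1 captured transcript). A nucleus was taken when its UMIs of Slc17a7 and Neurod6 summed to at least 3 and exceeded those of Gad1 and Gad2, when Otof and Ccbe1 together reached at least 3, and when Rorb and Foxp2 were each below 5. The 253 nuclei of Trim28-KO animal 60, the 193 of Trim28-KO animal 73, the 123 of control animal 64 and the 116 of control animal 65 made up 13.5% of the 5058 nuclei that met the excitatory part of the rule.

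All 4 mice were adults of 3 months that carried Emx1-Cre, a recombinase expressed from early corticogenesis in the lineage of cortical excitatory neurons and of part of the glia, but not in that of cortical interneurons or microglia. The 2 Trim28-KO animals had both Trim28 alleles floxed. The 2 controls, by their labels, had 1 floxed allele, so that they too carried Cre and an excised allele, and the comparison is then of loss of both alleles against loss of 1. One legend of the study, for bulk cortex, instead calls the control litter mates negative for Cre, and the labels are followed here. Each animal gave 1 library of sorted nuclei, sequenced from the 3′ ends of transcripts with unspliced RNA counted, and bulk RNA-seq of cortex was made from these 4 animals and from Trim28-KO animal 76 and control animal 77.

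Trim28, also called KAP1, is a corepressor that KRAB zinc-finger proteins bring to their DNA targets, many of them endogenous retroviruses, where it recruits SETDB1 and other factors that deposit H3K9me3 and silence transcription. Upper-layer excitatory neurons of the cortex are born late in corticogenesis, express transcription factors such as Cux2, and send their axons mainly to other cortical areas. Otoferlin, the product of Otof, is a calcium sensor of vesicle fusion known from auditory hair cells, and Ccbe1 is a secreted protein known from lymphatic vessel growth.

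The promoters of 4 genes are shown before their levels are taken up, as examples of a gene with no UMI in the control Otof Ccbe1 nuclei and a rise in Trim28-KO, of the largest rise with an entry in the promoter table, and of the 2 largest falls. They are RefSeq sequences of build GRCm38.p6, 5′ to 3′ on the strand of the gene, each 250 bases before and 50 after the listed start, with every CG dinucleotide in capitals because DNA methylation in mammals falls mainly on CG.
Draxin promoter, chr4:148130649-148130948, minus strand: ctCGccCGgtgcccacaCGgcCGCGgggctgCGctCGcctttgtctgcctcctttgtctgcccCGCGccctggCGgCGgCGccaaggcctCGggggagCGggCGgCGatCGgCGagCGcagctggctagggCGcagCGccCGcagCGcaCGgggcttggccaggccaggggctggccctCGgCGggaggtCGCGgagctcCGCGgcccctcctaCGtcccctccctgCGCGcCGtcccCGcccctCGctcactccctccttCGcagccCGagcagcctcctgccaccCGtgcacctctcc
2410018L13Rik promoter, chr12:23010194-23010493, minus strand: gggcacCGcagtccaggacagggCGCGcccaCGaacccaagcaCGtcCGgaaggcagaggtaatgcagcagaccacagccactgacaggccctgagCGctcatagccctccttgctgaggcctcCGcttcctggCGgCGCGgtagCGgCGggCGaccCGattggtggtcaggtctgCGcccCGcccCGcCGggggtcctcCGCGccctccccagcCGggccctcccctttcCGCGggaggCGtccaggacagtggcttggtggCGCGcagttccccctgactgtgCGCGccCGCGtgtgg
Adamts18 promoter, chr8:113848790-113849089, minus strand: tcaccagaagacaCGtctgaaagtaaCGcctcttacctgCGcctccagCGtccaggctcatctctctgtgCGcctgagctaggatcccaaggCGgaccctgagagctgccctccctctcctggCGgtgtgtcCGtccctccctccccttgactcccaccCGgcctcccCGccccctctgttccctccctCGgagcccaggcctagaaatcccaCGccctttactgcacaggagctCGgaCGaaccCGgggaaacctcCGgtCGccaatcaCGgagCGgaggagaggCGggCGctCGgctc
Cep112 promoter, chr11:108425016-108425315, plus strand: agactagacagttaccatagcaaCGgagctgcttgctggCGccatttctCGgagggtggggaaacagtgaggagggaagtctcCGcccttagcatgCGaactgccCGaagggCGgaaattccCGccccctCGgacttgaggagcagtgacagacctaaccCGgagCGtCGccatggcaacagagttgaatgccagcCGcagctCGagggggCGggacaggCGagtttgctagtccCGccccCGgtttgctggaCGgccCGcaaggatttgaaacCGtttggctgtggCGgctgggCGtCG
The Draxin promoter held 39 CG, and 4.29% of the 27025 promoters of the table held at least as many. The 2410018L13Rik promoter held 31, which 10.3% of promoters reached. Those of Adamts18 and Cep112 held 22 and 24, reached by 23.3% and 20.0%. The median over all promoters was 7. The count of CG is a description of the window, and no methylation was compared here.

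The nuclei were examined first against genes that mark cortical cell types. Slc17a7, the vesicular glutamate transporter of cortical excitatory neurons, stood at 306 and 318 CPM (the UMIs of a gene scaled to a common library total) in Trim28-KO animals 60 and 73 and at 265 and 250 in controls 64 and 65. Otof stood at 86.9, 119, 87.2 and 101 CPM and Ccbe1 at 260, 211, 235.5 and 213 CPM in the same order of animals. Neurod6, a differentiation factor of excitatory neurons, stood at 20.0 to 45.8 CPM, Rorb, the middle-layer factor capped by the rule, at 17.4 to 32.7 CPM and Foxp2, a layer 6 factor, at 4.15 to 6.56 CPM, while Gad1 and Gad2, the enzymes of GABA synthesis, stood at 1.13 to 4.39 CPM. These genes chose the nuclei, so their levels are a description. Otof was detected in 434 of the 685 nuclei, Ccbe1 in 635, and both in 384.

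Genes outside the rule that are known from upper layers were high in the same nuclei. Cux2, a homeobox factor of layers 2 to 4, stood at 406, 483, 434 and 485 CPM, and at 205 to 282 CPM in the excitatory nuclei outside the rule. Stard8, a protein with a lipid-binding START domain, stood at 88.9, 92.9, 83.7 and 100.2 CPM against 29.7 to 45.4. In no animal did the other excitatory nuclei reach the level of the Otof Ccbe1 nuclei for either gene. Rasgrf2, a Ras exchange factor, stood at 269 to 401 CPM against 115 to 159. Over 14 upper-layer markers that the rule did not use, the summed level was 1495 to 1850 CPM against 866 to 1092 CPM. The same list summed to 696 to 785 CPM in Gad1 Gad2 interneuron nuclei and 766 to 1072 CPM in non-neuronal nuclei. It was thus not particular to upper layers, though highest in the Otof Ccbe1 nuclei.

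Markers of other cell types were low. Middle-layer markers summed to 85.4 to 157 CPM against 691.5 to 748 in the other excitatory nuclei, with Scnn1a and Endou at 0 in all 4 animals. Deep-layer markers summed to 196 and 187 CPM in Trim28-KO animals 60 and 73 and 271 and 287 in controls 64 and 65, with Nxph4 at 0. In the other excitatory nuclei they summed to 908, 692, 1535 and 1531 CPM in the same order. In both classes the controls thus held more of them. Interneuron markers summed to 208 to 259 CPM against 15644 to 17792 CPM in Gad1 Gad2 nuclei, and Lhx6 was at 0. Astrocyte markers summed to 558 to 741 CPM against 5974 to 10060.2 CPM in non-neuronal nuclei, and vascular markers to 7.06 to 25.8 CPM with Cldn5 and Slc6a13 at 0. The rule itself left out nuclei high in Rorb, in Foxp2 or in Gad1 and Gad2. Those high in Rorb or Foxp2 are among the other excitatory nuclei. The low middle-layer, deep-layer and interneuron sums are thus not independent of the rule and are a description. By these markers the nuclei were excitatory and of the upper layers.

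**Figure D1:**
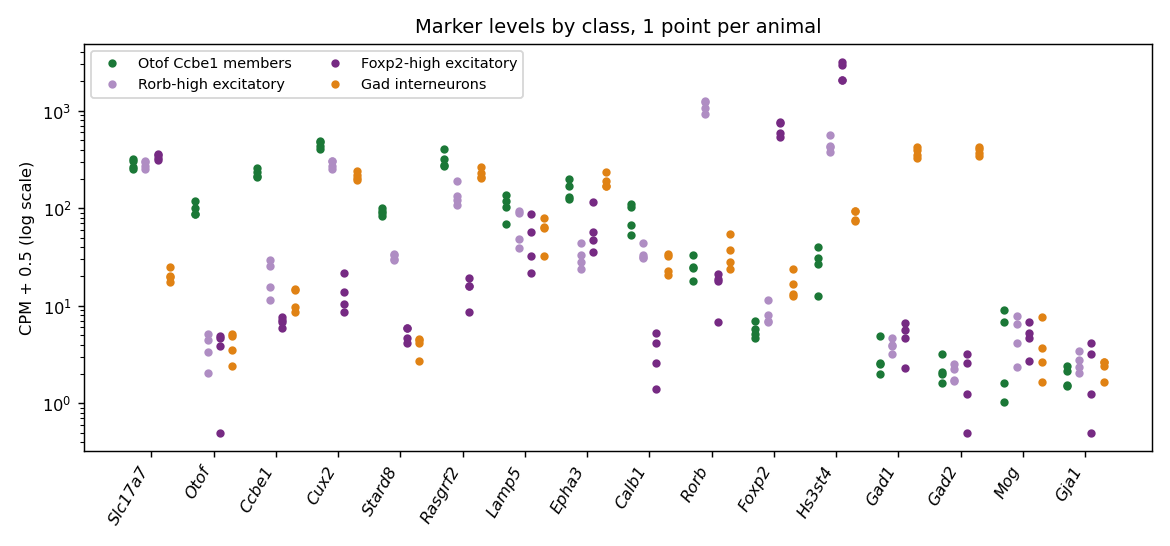
Level of 16 genes in the Otof Ccbe1 nuclei and in Rorb-high excitatory, Foxp2-high excitatory and Gad1 Gad2 nuclei, as CPM plus 0.5 on a log scale, with 1 point per animal (4 points per gene and class). The Otof Ccbe1 nuclei lie highest for Otof, Ccbe1, Cux2 (406 to 485 CPM) and Stard8 (83.7 to 100.2 CPM) and low for Gad1, Gad2, Mog and Gja1.

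The genes that most separated these nuclei from the other excitatory nuclei, ranked by the lowest fold over the 4 animals among genes of at least 50 CPM, were led by Synpr, a synaptic vesicle protein. Synpr stood at 69.9 and 55.1 CPM in the Trim28-KO animals and 118 and 101 in controls, 3.03 to 4.28 times the level of the other excitatory nuclei. Matn2, an extracellular matrix protein, was 3.02 to 3.79 times higher, and Evc2, a ciliary protein of Hedgehog signalling, 2.66 to 3.55 times. The list went on with Megf11, 6530403H02Rik, Igsf11, Epha3, Rps6ka2, Gucy1a3, Ankrd6 and Adamts3, whose lowest folds lay between 2.10 and 2.36. At the other end Hs3st4, a heparan sulphate sulfotransferase of deep-layer neurons, was at most 0.0601 times the level of the other excitatory nuclei, and Ptprm at most 0.131 times. The nuclei were chosen by genes measured in the same cells, so these folds carry no test.

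The threshold of the rule ran through a continuous range. At the edge, 228 nuclei held exactly 3 UMIs of Otof and Ccbe1 together and were included, whereas 336 excitatory nuclei held 2 and were not. The median member held 4 in every animal, and 1811 excitatory nuclei held none. No nucleus barcode of the group was shared between libraries, and 0 to 20 barcodes were shared between any 2 whole libraries. The median nucleus had 13722 and 12960 UMIs in Trim28-KO animals 60 and 73 and 15441 and 15767 in controls 64 and 65, and the summed UMIs were 3646724, 2647870, 1983324 and 1896960. The Trim28-KO nuclei were thus more numerous and individually shallower. UMIs from mitochondrial genes made up 0.183% of the total in animal 60 and 0.0516% to 0.0982% in the others.

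As a share of all nuclei, the Otof Ccbe1 neurons were 6.66% (95% exact Clopper-Pearson interval 5.89 to 7.50) and 4.99% (4.32 to 5.72) in the Trim28-KO animals, and 3.52% (2.93 to 4.18) and 3.71% (3.07 to 4.43) in controls. Both Trim28-KO animals lay above both controls. The means were 5.82% ± 1.18 and 3.61% ± 0.133 (SD, n = 2 each), a difference of 2.21 percentage points with an exact two-sided permutation p of 0.3333, the smallest that 2 animals against 2 allow. With each nucleus thinned to 9337 UMIs, which left out the 2160, 2225, 2045 and 1756 shallower nuclei of animals 60, 73, 64 and 65, the shares were 6.53%, 4.25%, 3.38% and 2.62%. All nuclei of the excitatory rule made up 39.4% and 40.2% of the Trim28-KO libraries and 29.0% and 31.7% of the control libraries, and within them the Otof Ccbe1 share was 16.9%, 12.4%, 12.1% and 11.7%. With a threshold of 5 UMIs the shares were 2.92%, 1.65%, 1.74% and 1.63%, and the groups overlapped. The intervals cover counting error only, and nuclei were sorted before loading, so the shares are of sorted nuclei.

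The targeted gene was examined next. Trim28 had 19 and 16 UMIs in the Trim28-KO nuclei and 14 and 14 in the control nuclei, or 5.21, 6.04, 7.06 and 7.38 CPM. A 3′ tag can lie outside the deleted part, so this count checks neither label. In bulk cortex, normalised Trim28 levels were 6.08, 8.53 and 8.88 CPM in Trim28-KO animals 60, 73 and 76 and 20.9, 18.98 and 21.4 CPM in controls 64, 65 and 77. The bulk groups did not overlap, and the log2 fold change was -1.39 ± 0.150 (SE, n = 3 each, edgeR quasi-likelihood adjusted p = 0.000378). Bulk cortex mixes cell types, so that fewer cells of a type and less RNA per cell cannot be told apart. Of 17 tested genes within 1 Mb of Trim28 on chromosome 7, 0 changed in the Otof Ccbe1 nuclei.

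The comparison of Trim28-KO with control then asked which genes change in these neurons when Trim28 is lost during development. UMIs were summed per animal and tested with edgeR's quasi-likelihood test, with a gene called at a Benjamini-Hochberg adjusted p below 0.05. Of 11322 genes tested, 325 (2.87%) were called, 148 higher (1.31%) and 177 lower (1.56%) in Trim28-KO. The called genes moved by a median of 1.07 on the log2 scale upwards and 0.934 downwards, and 84 and 77 of them by more than 2-fold. Without control 64, 898 genes were called, and without the other animals 230 to 408. Every called gene had both Trim28-KO animals on one side of both controls, as had 5716 of all genes tested. The share of calls in the upward direction depended on scaling. It was 45.5% with TMM, 57.1% (204 of 357) with library size only and 37.6% (71 of 189) with DESeq2, and the median over all genes was 0.0075 with TMM and 0.058 with library size only. Nothing in the labels says that the animals came from separate litters, and p-values measure the spread between 2 animals a group.

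**Figure D2:**
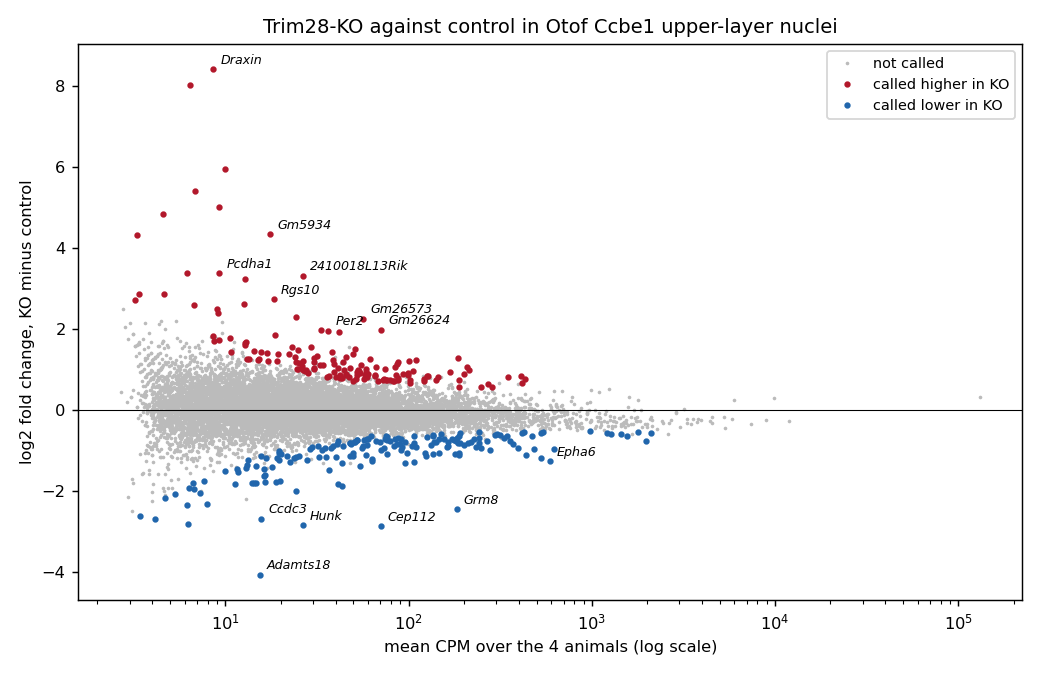
Log2 fold change of Trim28-KO over control against mean CPM over the 4 animals (log scale) for the 11322 genes tested in the Otof Ccbe1 nuclei, with red for the 148 called higher, blue for the 177 called lower and grey for the rest. Draxin, with no UMI in controls, and Gm5934 lie at the top, Adamts18, Cep112 and Hunk at the bottom.

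Draxin, a secreted ligand that repels growing axons and antagonises Wnt signalling, had no UMI in the control Otof Ccbe1 nuclei and a low level in Trim28-KO. It had 54 and 52 UMIs in Trim28-KO animals 60 and 73 (14.8 and 19.6 CPM) and 0 and 0 in controls 64 and 65, where a count of 0 allows up to 1.58 CPM per library. The rise was at least 10.9-fold against a floor of 3 UMIs per library (edgeR quasi-likelihood adjusted p = 0.00229). The excitatory nuclei outside the rule gave Draxin a log2 fold change of 4.49 in the same animals. Draxin lies on chromosome 4 (GRCm38, chr4:148098437-148130698, minus strand), and Mad2l2, whose start it overlaps on the opposite strand, stood at 4.39, 6.42, 8.57 and 10.0 CPM and was not called.

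The largest rise among genes of at least 10 CPM was that of Gm5934, a predicted gene of chromosome X, at 32.4 and 34.7 CPM in Trim28-KO and 2.02 and 1.05 in control (log2 fold change 4.34 ± 0.371, edgeR adjusted p = 0.000508). 2410018L13Rik, on chromosome 12, stood at 45.2 and 51.7 CPM against 7.06 and 2.11 (3.32 ± 0.346, adjusted p = 0.00145). For both genes each Trim28-KO animal lay well above each control, and 2410018L13Rik had 14 UMIs in control 64. Rgs10, which speeds GTP hydrolysis by G-alpha subunits, stood at 35.1 and 29.1 CPM against 2.02 and 7.38 (2.73 ± 0.382, adjusted p = 0.0058). The rises of Gm37020, Gm3604 and A330069E16Rik lay between 2.30 and 3.23 on the log2 scale. With a threshold of 5 UMIs of Otof and Ccbe1, A330069E16Rik lost its call (1.35, edgeR adjusted p = 0.103).

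Several rises were of genes with known cell functions that controls also expressed. Per2, a repressor of the circadian clock, stood at 57.9 and 58.5 CPM in Trim28-KO and 12.1 and 16.9 in control (1.96 ± 0.215, edgeR adjusted p = 0.00177). Cd302, a C-type lectin receptor, stood at 59.2 and 74.4 CPM against 16.1 and 17.4 (1.94 ± 0.210, adjusted p = 0.00174). Kcnk13, a two-pore-domain potassium channel, stood at 40.0 and 66.5 CPM against 11.6 and 14.2 (1.97 ± 0.294, adjusted p = 0.0085). In each of the 3 genes both Trim28-KO animals lay well above both controls. Dach1, a transcriptional cofactor, rose by 1.84 ± 0.370 (adjusted p = 0.0253) and lost its call (the only alternative in which it did) when the threshold was 2 UMIs of Otof and Ccbe1.

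A stretch of chromosome 4 (chr4:146153456-148166424, from the start of Gm26573 to the end of Fbxo2) held 6 of the called rises among 17 genes tested there, with 0 falls. Of all genes tested 1.31% were called higher. The stretch was marked out after these values were seen, so its count carries no test. Gm26624, a long non-coding RNA, stood at 128 and 99.7 CPM in Trim28-KO and 25.2 and 30.6 in control (1.98 ± 0.191, edgeR adjusted p = 0.000844). Gm26573, another long non-coding RNA, stood at 90.8 and 97.8 CPM against 22.7 and 15.3 (2.25 ± 0.202, adjusted p = 0.000508). The other 4 were C230088H06Rik, Gm13251, Gm13247 and Draxin. Gm13247 had 54 and 29 UMIs in Trim28-KO and 0 and 0 in control. The annotated start of Gm26624 lay inside an RMER6A copy, a member of the ERVK class of endogenous retroviruses, and those of Gm26573 and Gm13251 lay 233 and 395 bases from ERVK copies. Those of Gm13247, C230088H06Rik and Draxin lay 1836, 2274 and 2703 bases from such copies. Chromosome 4 as a whole held 14.2% of the called rises (21 of 148) and 6.44% of the genes tested. ERVK copies lay within 1000 bases of the start of 8.78% of the genes called higher, 5.71% of those called lower and 5.23% of all genes tested. Within 5000 bases the shares were 43.9%, 38.3% and 39.9% in the same order, close to each other. Long non-coding RNAs were 14.2%, 5.08% and 6.62% of the same sets.

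Among the falls, Adamts18, a secreted metalloprotease, had the largest. It stood at 2.19 and 1.13 CPM in Trim28-KO and 31.8 and 26.4 in control (log2 fold change -4.08 ± 0.363, edgeR adjusted p = 0.000508). Hunk, a protein kinase related to AMPK, stood at 7.68 and 5.29 CPM against 46.9 and 45.9 (-2.85 ± 0.251, adjusted p = 0.000508). Ccdc3, a secreted protein, stood at 4.11 and 4.53 CPM against 26.7 and 27.4 (-2.69 ± 0.285, adjusted p = 0.00151). For Hunk and Ccdc3 the animals of a group lay close together and far from the other group. Adamts18 also lay far below both controls in Trim28-KO. Its Trim28-KO values were near the detection floor and differed from each other, so the size of its fall is uncertain. Cep112, a centrosomal protein, stood at 17.3 and 17.8 CPM against 173 and 73.3, so that the controls differed from each other (-2.87 ± 0.345, adjusted p = 0.00273).

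Grm8, a presynaptic metabotropic glutamate receptor that dampens transmitter release, stood at 72.1 and 42.3 CPM in Trim28-KO and 279 and 337 in control (-2.46 ± 0.214, edgeR adjusted p = 0.000508). Zmat4, a zinc-finger protein low in these nuclei relative to other excitatory nuclei, stood at 23.0 and 13.2 CPM against 62.5 and 66.4 (-1.84 ± 0.235, adjusted p = 0.00346). Wls, which carries Wnt proteins to the cell surface, Tox, Gpc4, Flt3, Olfr78 and Adra1a, an alpha-1 adrenergic receptor, fell by 1.80 to 1.99 on the log2 scale. In each, both Trim28-KO animals lay below both controls. Olfr78 lost its call without animal 60 (adjusted p = 0.0612) and without nuclei that held glial UMIs (0.148). Tox lost its call with DESeq2 (0.338), with thresholds of 2 and 5 UMIs (0.0587 and 0.157), without control 64 (0.086) and with the trend over gene length removed (0.0884). Adra1a lost it without control 64 (0.0617) and without that trend (0.051), and Flt3 and Wls lost it with a threshold of 5 (0.134 and 0.0535).

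**Figure D3:**
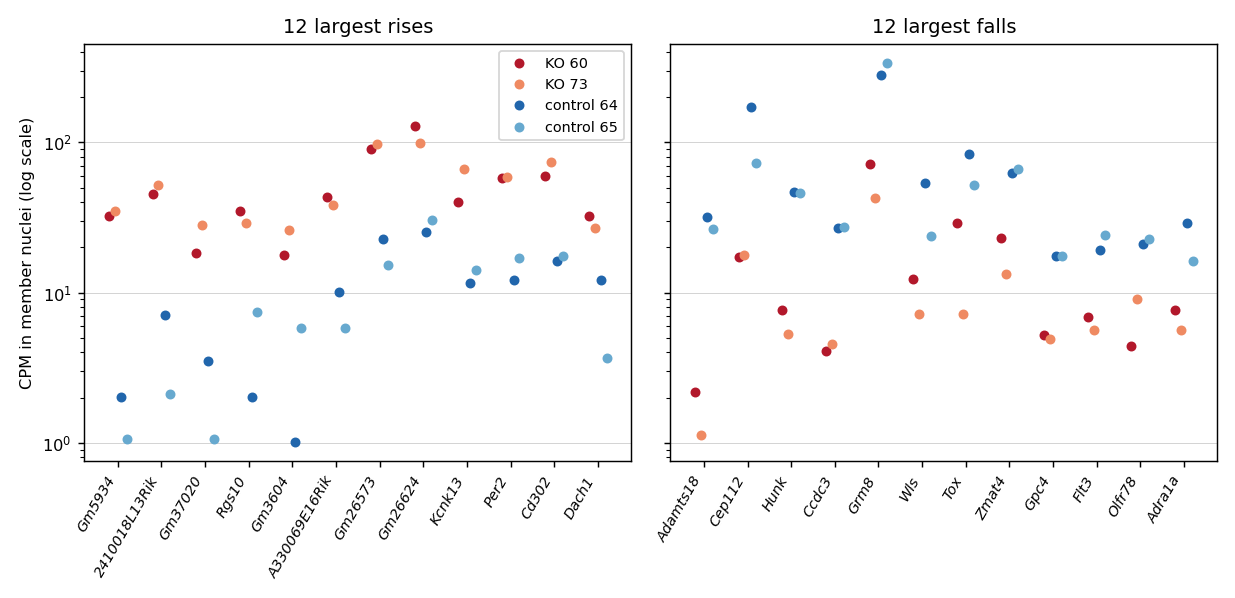
CPM in the Otof Ccbe1 nuclei of each animal (log scale) for the 12 largest rises (left) and the 12 largest falls (right) among called genes of at least 10 CPM on average, with red and orange for Trim28-KO animals 60 and 73 and dark and light blue for controls 64 and 65. The Trim28-KO and control points do not overlap for any of the 24 genes, and the controls lie apart from each other for Cep112 (173 and 73.3 CPM).

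Gene length moved with the direction of change. The median length, introns included, was 14.2 kb for genes called higher, 154 kb for genes called lower and 30.2 kb for all genes tested. Of 2177 tested genes of up to 10 kb, 62 were called higher and 0 lower, whereas of 907 genes over 200 kb, 10 were called higher and 69 (7.61%) lower. The median log2 fold change went from 0.34 in genes of up to 10 kb through 0.04 and -0.12 to -0.25 in genes over 200 kb. The same medians ran from 0.32 to -0.20 in Gad1 Gad2 interneurons, whose lineage lacks Emx1-Cre, and from 0.05 to -0.04 in bulk cortex. When the length trend of each animal was removed, an alternative added after the data were seen, 169 genes were called (103 higher, 66 lower), of which 141 were among the 325. Lists that follow are also given without the trend. The part of length in the calls was not tested further.

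**Figure D4:**
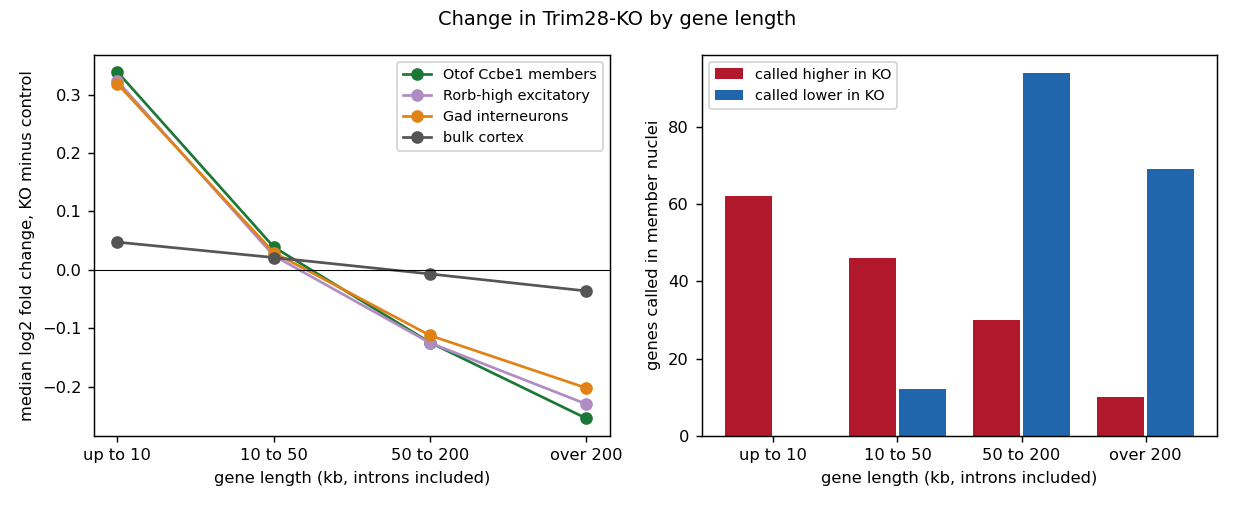
Left, median log2 fold change of Trim28-KO over control in 4 classes of gene length (kb) for the Otof Ccbe1 nuclei, Rorb-high excitatory nuclei, Gad1 Gad2 interneurons and bulk cortex. Right, number of genes called higher (red) and lower (blue) in the Otof Ccbe1 nuclei in the same classes, from 62 higher and 0 lower at up to 10 kb to 10 higher and 69 lower over 200 kb.

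Adhesion molecules, which set where neurites meet and which synapses form, had 10 falls and 0 rises among 65 tested, where 1.56% of all genes and 7.61% of those over 200 kb were called lower. The median log2 fold change was -0.28 against 0.0075 over all genes. Tmem132d, a transmembrane protein of a family proposed to act in cell adhesion, stood at 350 and 315 CPM in Trim28-KO and 633 and 821 in control (-1.18 ± 0.144, edgeR adjusted p = 0.00291). Flrt2, a ligand of Unc5 receptors and latrophilins, stood at 184 and 195 CPM against 353 and 375 (-0.99 ± 0.125, adjusted p = 0.0032). Cntnap5b, a neurexin relative, stood at 90.8 and 86.5 CPM against 149.7 and 217 (-1.10 ± 0.176, adjusted p = 0.0116). These 3 genes kept their calls without the length trend and the list median was then -0.04, whereas Sdk1, Cdh18 and Cntn1 did not (adjusted p = 0.078, 0.177 and 0.186). Without animal 73 these last 3 were not called either (0.104, 0.211 and 0.394), nor was Cntn1 without animal 60 (0.207) or Cdh18 without control 65 (0.0937). Cdh9, Cntnap5c, Lsamp and Igsf21 completed the 10, and they too were not called without the length trend, so that 3 falls of the 10 were left.

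Of 32 axon guidance genes, 1 rose (Draxin) and 3 fell, against 1.31% and 1.56% of all genes, with a median of -0.25 (-0.06 without the length trend). Epha6, an ephrin-A receptor, stood at 374 and 334 CPM in Trim28-KO and 925 and 727.5 in control (-1.27 ± 0.144, edgeR adjusted p = 0.002). Epha7, of the same receptor family, and Slit2, the ligand of Robo receptors, fell by 0.91 and 0.79 and lost their calls without the length trend (adjusted p = 0.134 and 0.156) and without animal 73 (0.138 and 0.261), Epha7 also without control 64 (0.0765) and Slit2 without control 65 (0.136). Draxin and Epha6 kept theirs.

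Among 43 glutamate receptors and postsynaptic scaffolds 3 fell (against 1.56% of all genes) and 0 rose (median -0.15). Grm8 was one. Grm3, a group II metabotropic receptor, stood at 208 and 140.5 CPM against 360.5 and 286, and Camk2d, a calcium/calmodulin kinase subunit, at 112 and 128 CPM against 192 and 190. Both lost their calls without the length trend (adjusted p = 0.096 and 0.0952), and Camk2d also without animal 60 or 73 (0.238 and 0.0514). Without the trend the list held 1 rise, Cacng2, and 1 fall, Grm8, with a median of 0.05. Of 33 genes of presynaptic release 2 rose, Vamp2 and Nrxn2, and 1 fell, Syn3 (median -0.12, and 0.00 without the length trend). Nrxn2, a neurexin, stood at 228 and 224 CPM against 146 and 149.7 and was the 1 of the 3 called without the length trend. Nrxn2 lost its call without animal 60 or 73 (adjusted p = 0.287 and 0.257), as did Vamp2 (0.103 and 0.164), and Grm3 lost it without animal 73 (0.134).

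Ion channels and inhibitory receptors were taken up next. Of 55 voltage-gated channel subunits, 2 fell and 0 rose (median -0.12), beside 1.56% of all genes called lower. Without the length trend 1 rose, Cacna2d2, and 1 fell, Scn1a, with a median of -0.01. Scn1a, the sodium channel subunit of Dravet syndrome, stood at 199 and 158 CPM against 297.5 and 315 (-0.83 ± 0.143, edgeR adjusted p = 0.0151, and 0.148 without animal 73). Kcnma1, the BK potassium channel, stood at 1081 and 980 CPM against 1298 and 1702 (adjusted p = 0.05, just under the threshold) and lost its call without the length trend (adjusted p = 0.279) and without animal 60, 73 or control 65 (0.103, 0.297 and 0.0705). Of 11 GABA-A receptor subunits none was called in either direction (median -0.26, and -0.07 without the length trend), with the smallest adjusted p, 0.0652, at Gabra5.

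Genes of layer identity were read against the 2.87% of all genes called in either direction. Deep-layer markers summed lower in both Trim28-KO animals (196 and 187 CPM) than in both controls (271 and 287). Tox and Zmat4, which fell, were also lower in these nuclei than in the other excitatory nuclei. Whether a difference in make-up entered such falls was not tested. Of the 14 upper-layer markers 13 did not pass (list median 0.00, with and without the length trend), and Calb1, a calcium-binding protein, fell from 110 and 102 CPM in controls to 52.9 and 66.1 in Trim28-KO (-0.89 ± 0.161, edgeR adjusted p = 0.018). Of 28 layer transcription factors 1 was called, with and without the length trend. This was Tshz3, at 67.7 and 61.6 CPM against 136 and 126 (-1.06 ± 0.146, adjusted p = 0.00508). Vwc2l, a secreted protein among 9 tested deep-layer markers (median -0.64, and -0.48 without the trend), fell by 1.77, a call lost without the length trend (adjusted p = 0.0535) and without control 64 (0.0524). Calb1 lost its call without animal 60 (adjusted p = 0.146).

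Trim28 partners, immune sensing genes and imprinted genes were read against the same 2.87%. Of 31 heterochromatin factors 0 were called (edgeR, 2 at an unadjusted p below 0.05, both lower, median -0.11, and -0.03 without the length trend). Setdb1, the H3K9 methyltransferase that Trim28 recruits, stood at 71.9 and 64.96 CPM against 83.2 and 86.5 (adjusted p = 0.224). Of 8 tested genes of nucleic acid sensing and interferon response 0 were called (1 at an unadjusted p below 0.05, median 0.16, and -0.05 without the length trend). Of 33 imprinted genes 2 rose (median 0.03), beside 1.31% of all genes, and without the length trend Gm26835 and Gnas were called higher (median 0.11). Gm26835 stood at 444 and 456 CPM against 282 and 216 (0.80 ± 0.146, adjusted p = 0.0187), and Nap1l5, a nucleosome assembly protein relative, at 120.4 and 105 against 67.6 and 58.0, a call lost without the length trend (adjusted p = 0.443) and without animal 60 (0.151). Pcdha1 was the 1 clustered protocadherin of 58 with enough UMIs to be tested. It stood at 18.1 and 15.9 CPM in Trim28-KO and 1.51 and 1.58 in control (3.37 ± 0.424, adjusted p = 0.0032). Both control values lay at or under the floor of 1.58 CPM, so the size of the rise is uncertain. The gene passed the filter on low counts through the Trim28-KO animals only. Its first exon is its own but its 3′ exons are common to the whole alpha cluster, so the isoform behind these tags is uncertain.

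Activity-induced genes had a median of 0.46 over 23 tested, with 2 rises and 0 falls, beside 1.31% of all genes called higher. Without the length trend the median was 0.12 and 1 gene, Vgf, was called. Vgf, a secreted neuropeptide precursor, stood at 74.9 and 71.0 CPM against 32.8 and 21.1 (1.38 ± 0.207, edgeR adjusted p = 0.00855). Its call was lost with a threshold of 5 UMIs of Otof and Ccbe1 (1.15, adjusted p = 0.0701). Junb, an immediate early transcription factor, stood at 77.1 and 75.2 CPM against 21.2 and 46.9, a call lost without the length trend (adjusted p = 0.316). It was also lost with the UMIs of each animal thinned to the smallest total (edgeR adjusted p = 0.0729) and without nuclei that held glial UMIs. Ribosomal protein genes had a median of 0.49 over 66 tested, and Rps21 and Rpl29 were called. Both calls were lost and the median was 0.07 without the length trend. Rps21 also lost its call without animal 60, 73 or control 65 (adjusted p = 0.0704, 0.0584 and 0.055) and Rpl29 without animal 73 or control 65 (0.176 and 0.0841). Mitochondrially encoded genes summed to 1835 CPM in animal 60 and 516, 553 and 982 in the others, with 0 of 11 called (edgeR, 1 at an unadjusted p below 0.05, and a median of -0.08 without the length trend).

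The study names 10 genes for excitatory neurons from these same animals, so the direction of these genes here is no independent evidence. Of them 1 rose (Gm26835) and 4 fell (Tmem132d, Hecw2, Pak7 and Cdh18). The other 5 were Homer1 (log2 fold change 0.65), Hs3st4 (-0.88), Meg3 (0.29), Pde10a (0.48) and Sgcz (-0.58). They were not called (edgeR adjusted p = 0.0569 for Sgcz to 0.194 for Meg3). The study reports Sgcz as reduced in excitatory neurons. Hecw2, a ubiquitin ligase, stood at 449 and 405 CPM against 708 and 908 (-0.97 ± 0.140, edgeR adjusted p = 0.00761), and Pak7, a p21-activated kinase of neurons, at 393 and 280 against 611 and 655 (-0.96 ± 0.157, adjusted p = 0.0121). Pak7 lost its call without animal 73 (adjusted p = 0.0693). Without the length trend Pde10a, a phosphodiesterase, was called higher (adjusted p = 0.0242), the list median was -0.40, and Cdh18 was no longer called (its values without single animals stand with the adhesion genes).

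Of 5 oligodendrocyte markers tested 1 was called, Mbp, and of 6 astrocyte markers 1, Slc4a4, beside 2.87% of all genes. Mbp, the myelin basic protein gene, stood at 82.3 and 74.8 CPM in Trim28-KO and 35.3 and 46.9 in control (0.89 ± 0.177, edgeR adjusted p = 0.0245), while the 8 oligodendrocyte markers summed to 146, 107, 131 and 84.3 CPM. Slc4a4, a bicarbonate transporter of astrocytes, fell by 0.75 (adjusted p = 0.0231), a call lost without the length trend (0.109) and without animal 73 (0.266). Mbp lost its call without animal 60 (0.0938). No microglial, oligodendrocyte progenitor, interneuron, middle-layer or hippocampal marker was called, of 5, 2, 6, 4 and 3 tested. Microglial markers summed to 61.4, 64.2, 67.1 and 52.7 CPM, oligodendrocyte progenitor markers to 146, 154, 106 and 151 CPM and hippocampal markers to 125 to 154 CPM. Without the length trend the medians were -0.38 for oligodendrocyte, -0.14 for astrocyte, 0.45 for oligodendrocyte progenitor and -0.17 for microglial markers. They were 0.22 for interneuron, 0.07 for middle-layer and 0.37 for hippocampal markers, and Mbp was the 1 gene called. Counted over the whole glial and vascular lists, which hold genes such as Lhfpl3 and Slc4a4, 676 of the 685 nuclei had 3 or more UMIs. A narrower filter, on defining genes such as Mog, Aqp4, Csf1r and Cldn5, left out nuclei with 2 or more UMIs of them. With it 489 nuclei remained, 213 genes were called, and Mbp and Calb1 were not among them.

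The change in the Otof Ccbe1 nuclei was compared with that in other nuclei of the same animals by a test of the difference, with the animal as a block. Gad1 Gad2 interneurons (1250 nuclei) served as neurons outside the Emx1-Cre lineage. In a fit of their own, edgeR called 0 of 12308 genes (0%) in them, with 1735 at an unadjusted p below 0.05. The difference in effect was called for 104 of 12946 genes (0.803%), 55 more positive and 49 more negative in the Otof Ccbe1 nuclei. Without the animal block 10 were called.

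Genes with such a difference included rises and falls named above. Gm26624 stood at 20.5 and 18.8 CPM in Trim28-KO interneurons and 19.6 and 22.5 in control interneurons, and its effect was higher by 2.12 ± 0.231 on the log2 scale in the Otof Ccbe1 nuclei (edgeR adjusted p = 0.000213). Hunk stood at 155.5 and 189 CPM against 142 and 179 in interneurons, with a difference of -2.88 ± 0.261 (adjusted p = 2.07e-05). Grm8 stood at 152 and 129 CPM against 161 and 181, with a difference of -2.15 ± 0.166 (adjusted p = 3.56e-06). The interneuron groups overlapped for Gm26624 and Hunk, and lay apart by a small margin for Grm8. Calb1, which many interneurons use, stood at 32.1 and 33.8 CPM against 22.4 and 20.2 in interneurons, so that its groups stood in the opposite order (-1.47 ± 0.199, adjusted p = 0.00105). Epha6 and Flrt2 differed by -1.06 and -0.86 (adjusted p = 0.00348 and 0.0047).

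Rorb-high excitatory nuclei (1343 nuclei, Rorb of at least 5 UMIs) are the middle-layer neighbours of the Otof Ccbe1 nuclei. Their own fit called 1143 of 12741 genes (8.97%), at a larger number of nuclei, so the counts are not comparable. The difference in effect was called for 31 of 13042 genes (0.238%), 8 more positive and 23 more negative in the Otof Ccbe1 nuclei, and for 0 of them without the animal block (edgeR, 514 at an unadjusted p below 0.05). Flrt2 stood at 306 and 294 CPM in Trim28-KO and 280 and 351 in control in the Rorb-high nuclei, where the groups overlapped, and the difference was -0.89 ± 0.119 (adjusted p = 0.00139). Cep112 stood at 17.7 and 16.5 CPM against 55.9 and 25.7, with a difference of -1.57 ± 0.215 (adjusted p = 0.00139). Epha6 stood at 488 and 485 CPM against 583 and 655, with a difference of -0.89 ± 0.131 (adjusted p = 0.00261). The Otof Ccbe1 nuclei thus had the larger fall of these 3 genes.

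Foxp2-high excitatory nuclei (344 nuclei, Foxp2 of at least 5 UMIs) were chosen by a layer 6 factor, and only 36 of them came from animal 73. Animal 60 gave 84, and controls 64 and 65 gave 115 and 109. Chst8 stood at 63.5 and 39.9 CPM in their Trim28-KO nuclei and 13.6 and 5.15 in control. It is 1 of 17 genes of the deep-layer list and does not stand for the others, which are not given for this class. Over all excitatory nuclei outside the rule, the summed list was higher in the controls. Whether the make-up of the Foxp2-high class differed between genotypes was not tested, so the differences below need not be those of 1 fixed cell type. In a fit of their own, the Foxp2-high nuclei gave 209 calls of 9836 genes (2.12%). The difference in effect was called for 90 of 11352 genes (0.793%), 10 more positive and 80 more negative in the Otof Ccbe1 nuclei, and for 15 without the block. Epha6 stood at 342 and 244 CPM in Trim28-KO and 193.5 and 86.7 in control in the Foxp2-high nuclei, above the controls where the Otof Ccbe1 nuclei were below them (difference -2.35 ± 0.216, edgeR adjusted p = 2.2e-05). Tox, a nuclear HMG-box protein, stood at 606 and 288 CPM against 422 and 279, with a difference of -2.26 ± 0.240 (adjusted p = 9.81e-05). Flrt2 stood at 245 and 340 CPM against 288 and 295 and differed by -0.91 ± 0.175 (adjusted p = 0.0148, and 0.0654 without animal 73). Flrt2, Epha6 and Cep112 were the named genes whose fall was larger in the Otof Ccbe1 nuclei than in each of the 3 other classes, where Cep112 differed by -2.74 from interneurons and by -1.52 from Foxp2-high nuclei, the latter not called without animal 60 (adjusted p = 0.655).

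Other named genes moved side by side in the excitatory classes, which come from the same 4 animals, Trim28-KO and control alike. Gm26624 had log2 fold changes of 1.98, 2.07 and 2.17 in Otof Ccbe1, Rorb-high and Foxp2-high nuclei and Hunk of -2.85, -2.93 and -2.49. Tmem132d had -1.18, -1.03 and -1.07, Hecw2 -0.97, -0.84 and -0.84, and Per2 1.96, 1.71 and 1.78. None of these 5 was called for a difference between the excitatory classes, which does not show that their changes were equal.

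**Figure D5:**
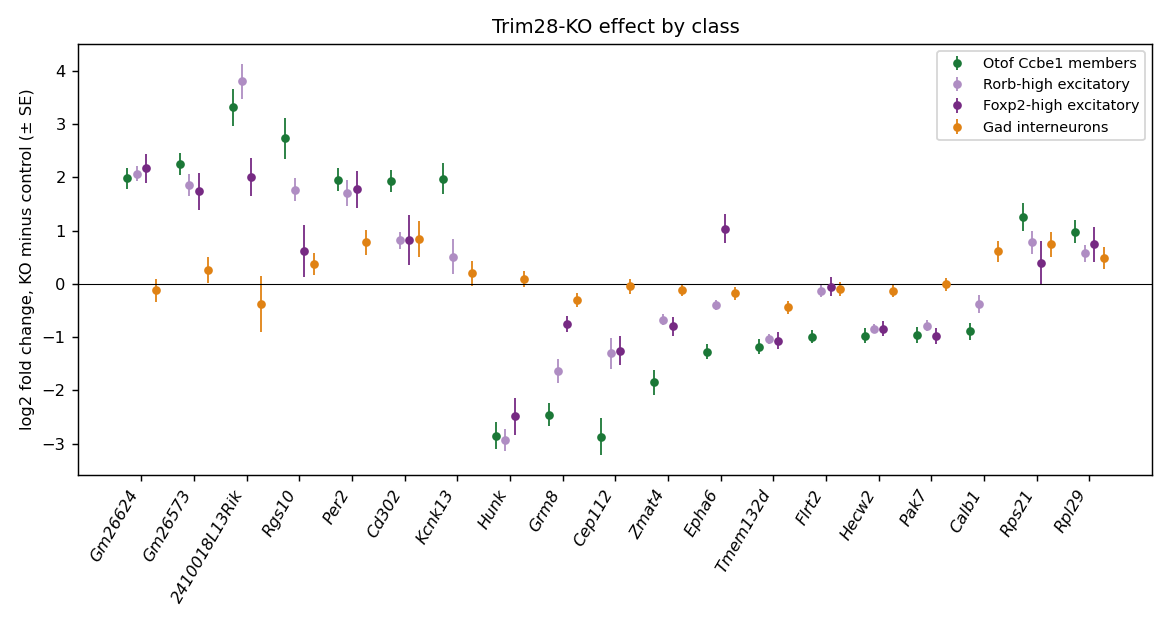
Log2 fold change of Trim28-KO over control (points) with its SE (bars) for 19 named genes in the Otof Ccbe1 nuclei, Rorb-high excitatory, Foxp2-high excitatory and Gad1 Gad2 interneuron nuclei, each from its own fit of 2 Trim28-KO and 2 control animals, with no point where a gene was not tested. Gm26624 and Hunk lie together in the 3 excitatory classes and near 0 in interneurons, whereas Flrt2 and Epha6 lie lowest in the Otof Ccbe1 nuclei.

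In bulk cortex 223 of 16271 genes (1.37%) were called between 3 Trim28-KO and 3 control animals. 2410018L13Rik stood at 8.18, 9.36 and 8.56 normalised CPM in Trim28-KO animals 60, 73 and 76 and at 0.653, 0.598 and 0.267 in controls 64, 65 and 77 (log2 fold change 4.08 ± 0.243, edgeR adjusted p = 2.12e-06). Rgs10 stood at 31.8, 37.8 and 34.9 CPM against 16.6, 15.1 and 18.3 (1.06 ± 0.112, adjusted p = 0.000291). Hunk stood at 13.3, 14.4 and 18.2 CPM against 23.4, 23.6 and 24.0 (-0.64 ± 0.125, adjusted p = 0.0244, and 0.0509 to 0.165 without animal 60, 73, 64, 65 or 77). Ccdc3 stood at 1.65, 3.41 and 2.54 CPM against 5.99, 7.12 and 9.02 (-1.53 ± 0.245, adjusted p = 0.00667, and 0.0617 without control 77). In each the bulk groups did not overlap. These are the named genes alone, and since bulk and nuclei share animals no overlap of the called genes is given. Tmem132d (-0.77), Dach1 (1.11) and Pcdha1 (3.55) were also called, as were Tshz3 (-0.52) and Cd302 (0.62), both lost without animal 73, 64, 65 or 77 (adjusted p = 0.0524 to 0.122). Grm8 (-0.57 ± 0.205, adjusted p = 0.334), Epha6 (0.07 ± 0.152, adjusted p = 0.992) and Cep112 (0.08 ± 0.25, adjusted p = 0.999) were not.

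Animals 76 and 77 gave bulk RNA but no nuclei, and so took no part in choosing the called genes. Of the 134 genes called higher in the Otof Ccbe1 nuclei and tested in bulk, 101 (75.4%) were higher in animal 76 than in 77, and of the 168 called lower 30 (17.9%) were, against 50.7% of all 10622 genes tested in both. This is a description of 1 animal against 1. Genes called higher were shorter than genes called lower (medians of 14.2 and 154 kb), and bulk cortex had a length trend in the same direction. The part of length in this split was not tested.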

How the data were processed

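Single nuclei of cortex from 4 animals (10x 3′ libraries) and bulk cortex RNA from 6 animals were analysed. UMI counts of each nucleus were deposited as a matrix by the authors, who made it with Cell Ranger 3.0 on a pre-mRNA mm10 reference, and bulk read counts per gene from STAR 2.6.0 and featureCounts (Subread 1.6.3). The start and end positions of ERVK copies were taken from a deposited table. The table of bulk counts held 26 columns of other samples that were not used.

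UMIs of the chosen nuclei were summed per animal and tested with edgeR 4.0.16 in R 4.3.3 (filterByExpr, TMM, quasi-likelihood test, Benjamini-Hochberg adjusted p below 0.05). Differences between nuclear classes were tested as interactions with the animal as a block, and bulk cortex as 3 against 3. The edgeR fits of 2 against 2 and 3 against 3 animals and the length correction were tested on simulated data, the interaction fits were not. Alternatives included DESeq2 1.42.0, other thresholds of the rule, no filter, and each animal left out. The members and gene lists were chosen with earlier results of these data known. Named genes were the 12 largest called changes in each direction with groups apart and at least 10 CPM on average, up to 6 called genes per list (or the 2 of smallest p) and the study's list, beside the genes of the rule and the 12 most enriched. Further list members, and the chromosome 4 stretch with its genes, were named after their values were seen. No doublet caller was run. An item of the enriched genes and an added alternative are not reported here. Library depth is given with the nuclei, and the bulk libraries held 16748967 to 25345083 counts.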

Additional observations from a re-analysis of the deposited data

Results flagged for a closer look

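Results of 3 comparisons were taken up because the Trim28-KO effect in the Otof Ccbe1 nuclei differed from that in another class of nuclei of the same animals by an interaction test (edgeR, adjusted p below 0.05). The difference was called for 104 genes against interneurons, 31 against Rorb-high and 90 against Foxp2-high excitatory nuclei. Values are differences of log2 fold changes, positive where the change was higher in the Otof Ccbe1 nuclei.

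Against interneurons, genes that rose in the Otof Ccbe1 nuclei differed by 3.73 (2410018L13Rik), 3.36 (Gm3604), 2.39 (Rgs10), 2.12 (Gm26624), 2.03 (Gm26573), 1.80 (Kcnk13), 1.70 (Dach1) and 1.53 (Mbp). The call of 2410018L13Rik was lost without control 65 (adjusted p = 0.225), as was that of Dach1 (0.338). Genes that fell differed by -3.83 (Adamts18), -2.88 (Hunk), -2.74 (Cep112), -2.15 (Grm8), -1.82 (Wls), -1.73 (Adra1a), -1.70 (Zmat4), -1.47 (Calb1) and -1.45 (Flt3). Wls and Adra1a lost the call without control 64 (adjusted p = 0.195 and 0.104). Smaller differences were those of Epha6 (-1.06), Pak7 (-0.93), Flrt2 (-0.86), Hecw2 (-0.79), Epha7 (-0.71) and Tmem132d (-0.70). Pak7 lost the call without animal 73 (adjusted p = 0.0708) and Epha7 without animal 73 or control 64 (0.29 and 0.171).

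Against Rorb-high nuclei the differences were 1.10 for Cd302, -1.57 for Cep112, -1.70 for Ccdc3, -1.17 for Zmat4, -0.89 for Flrt2 and -0.89 for Epha6. Without animal 73, Cd302, Ccdc3 and Zmat4 were not called (adjusted p = 0.104, 0.228 and 0.131), and without control 65 Cd302 was not (0.163).

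Against Foxp2-high nuclei the differences were -2.35 for Epha6, -2.26 for Tox, -2.18 for Adra1a, -2.15 for Vwc2l, -1.70 for Grm8, -1.52 for Cep112 and -0.91 for Flrt2. Without animal 60, Cep112 and Adra1a were not called (adjusted p = 0.655 and 0.0638), without animal 73 Flrt2 was not (0.0654), and without control 64 Vwc2l was not (0.0859).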

How the results depend on the processing

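With 2 animals a group, the number of genes called in the Otof Ccbe1 nuclei (325) moved with most choices. It was 1000 with Cux2 and Stard8 of at least 5 UMIs in place of Otof and Ccbe1, 884 without a filter on low counts, 213 without nuclei of 2 or more UMIs of defining glial or vascular genes, 210 with Otof and Ccbe1 of at least 5, 189 with DESeq2 and 169 without the length trend. Leaving out 1 animal gave 230 to 898. Of 55 named calls, 26 were called under every alternative in which they were tested and 29 were lost under at least 1. The count against interneurons (104) was 10 without the animal block, 282 without a filter and 119 to 174 with 1 animal left out. The same 3 settings gave 0 (edgeR, with 514 at an unadjusted p below 0.05), 101 and 33 to 116 against Rorb-high nuclei (31), and 15, 185 and 88 to 140 against Foxp2-high nuclei (90). Bulk cortex (223) gave 413 without TMM, 621 without a filter and 104 to 387 with 1 animal left out. The share difference (2.21 points) was 3.92 with a threshold of 2, 0.600 with a threshold of 5 and 1.37 to 3.05 with 1 animal left out.

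The sign turned for 6 genes that were not called. Lhfpl3 was -0.054 with Cux2 and Stard8, -0.036 without glial nuclei and -0.087 to 0.41 with 1 animal left out. P2ry12 was -0.030 with Cux2 and Stard8, -0.0016 with a threshold of 2 and -0.051 to 0.40 with 1 animal left out. Vcan was -0.14 with Cux2 and Stard8, and Grip1 0.012 without the length trend. With 1 animal left out mt-Nd3 was -0.046 to 1.37 and Fibcd1 -0.20 to 1.56. The cause of these moves was not tested.

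Leaving out nuclei with 3 or more UMIs of the whole glial and vascular lists, a wider set of genes, was not run, since 676 of 685 nuclei had them and 9 remained. The alternatives without glial nuclei and without the length trend were chosen after seeing the data. No paired analysis was possible because the Trim28-KO and control animals share no replicate numbers.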
